A study of Mus musculus with 2 samples.

Results

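The homeobox genes Otx2 and Crx were examined in ATAC-seq peak lists of control and Ngn3-OE late retinal progenitor cells (late RPCs). Each gene was taken with its GENCODE gene body on the GRCm38/mm10 build and 100 kb on either side. Otx2 (ENSMUSG00000021848.16) lies on the minus strand at chr14:48657677-48673819 and Crx (ENSMUSG00000041578.15) on the minus strand at chr7:15865947-15879968, which gave windows of 216 kb and 214 kb. All peaks whose summit, the position of highest signal, lay in a window were taken. The Otx2 window held 32 control and 33 Ngn3-OE peaks and the Crx window 22 and 25, together 112 of the 242100 peaks of both libraries. The peaks were thus chosen by their called positions in the same files, and the numbers of peaks and of shared peaks below describe the loci and test nothing.

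ATAC-seq uses the Tn5 transposase to cut and tag accessible DNA, and open regions appear as peaks of sequenced fragments. Plasmid DNA was introduced into the retinas of mouse pups by in vivo electroporation at postnatal day 1, and GFP+ cells were sorted 2 days later, with 50000 cells per library. The control group received the control plasmid and the Ngn3-OE group the plasmid for overexpression of Neurog3, a basic helix-loop-helix proneural factor. Both groups came from the retina at the same age and were described as RPCs, and the labels name no strain or genotype. The sort selects electroporated cells of any type, and the number of pooled pups and the promoter of the plasmids are not given in the sources used here. Each group had 1 library, so no difference below has a replicate check. The intervals of tag ratios cover counting error only, and those of shares treat peaks as independent draws.

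OTX2 is a homeodomain transcription factor that sets photoreceptor and bipolar cell fate in the retina and is expressed as progenitors leave the cell cycle. CRX is a related homeodomain factor that acts downstream of OTX2 in young photoreceptors and drives the genes of phototransduction together with NRL and NR2E3. Both proteins bind DNA at the core GGATTA, and Otx2 is also under the control of proneural basic helix-loop-helix factors, which bind E-boxes.

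The sequences of the 3 control peaks of highest −log10 q more than 1 kb from the start sites of each gene are given first, since they are the strongest there, together with the upstream Otx2 peak whose ratio of tags is described below and the upstream part of the Crx promoter peak. Capitals mark every GGATTA (OTX and CRX type), CATCTG (E-box core) and CCATTGT or CCTTTGT (SOX type) on either strand. The first motif reads TAATCC on the opposite strand, the E-box core reads CAGATG, and the second SOX-type form reads ACAAAGG. None of these motifs contains another. The sequences are those of the GRCm38 reference on the minus strand, 5′ to 3′, which is the strand of both genes. Positions are given in kb from the 5′ end of the gene, negative upstream of it and positive along the gene and past its 3′ end. At Otx2 they are the 300 bases around the summit of the peak at 80.3 kb (chr14:48593365-48593664), the 300 bases around the summit of the peak at 64.7 kb (chr14:48608949-48609248), the whole peak at 93.3 kb (chr14:48580349-48580625) and the whole peak at -67.6 kb (chr14:48741332-48741488).
Otx2 +80.3 kb: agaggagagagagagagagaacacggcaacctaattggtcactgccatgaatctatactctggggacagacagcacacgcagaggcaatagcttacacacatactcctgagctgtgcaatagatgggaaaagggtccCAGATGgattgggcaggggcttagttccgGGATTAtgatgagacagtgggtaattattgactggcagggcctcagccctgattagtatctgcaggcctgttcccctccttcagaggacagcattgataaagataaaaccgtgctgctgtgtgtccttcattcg
Otx2 +64.7 kb: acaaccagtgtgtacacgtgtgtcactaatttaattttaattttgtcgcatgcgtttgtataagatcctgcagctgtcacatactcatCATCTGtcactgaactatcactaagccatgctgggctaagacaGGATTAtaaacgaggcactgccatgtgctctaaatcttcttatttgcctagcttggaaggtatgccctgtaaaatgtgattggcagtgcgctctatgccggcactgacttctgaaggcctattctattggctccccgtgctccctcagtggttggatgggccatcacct
Otx2 +93.3 kb: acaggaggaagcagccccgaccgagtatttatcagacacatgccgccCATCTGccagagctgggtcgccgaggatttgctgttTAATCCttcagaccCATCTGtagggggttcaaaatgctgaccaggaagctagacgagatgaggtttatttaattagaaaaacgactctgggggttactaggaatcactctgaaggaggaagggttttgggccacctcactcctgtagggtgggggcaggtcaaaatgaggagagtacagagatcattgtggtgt
Otx2 -67.6 kb: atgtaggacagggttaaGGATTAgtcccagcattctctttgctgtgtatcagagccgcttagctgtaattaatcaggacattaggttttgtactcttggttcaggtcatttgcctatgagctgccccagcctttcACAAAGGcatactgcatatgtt
The first 3 of these each held GGATTA and the E-box core, and the upstream one held GGATTA and a SOX-type match but no E-box core.

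At Crx the sequences are the part of the promoter peak upstream of the first exon (chr7:15879969-15880123), the part of the peak at -1.67 kb that lies in the 300 bases around its summit (chr7:15881492-15881753), the whole peak at 15.6 kb, past the 3′ end of the gene (chr7:15864190-15864436), and the whole peak at -26.1 kb (chr7:15905886-15906182).
Crx promoter: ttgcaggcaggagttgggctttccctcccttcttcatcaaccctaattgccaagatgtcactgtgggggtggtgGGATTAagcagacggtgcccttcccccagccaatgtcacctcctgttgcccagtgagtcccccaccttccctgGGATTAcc
Crx -1.67 kb: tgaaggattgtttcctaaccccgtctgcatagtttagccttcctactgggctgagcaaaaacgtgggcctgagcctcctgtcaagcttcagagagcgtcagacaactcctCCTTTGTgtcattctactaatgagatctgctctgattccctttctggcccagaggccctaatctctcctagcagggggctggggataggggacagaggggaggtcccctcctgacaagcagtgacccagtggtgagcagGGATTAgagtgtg
Crx +15.6 kb: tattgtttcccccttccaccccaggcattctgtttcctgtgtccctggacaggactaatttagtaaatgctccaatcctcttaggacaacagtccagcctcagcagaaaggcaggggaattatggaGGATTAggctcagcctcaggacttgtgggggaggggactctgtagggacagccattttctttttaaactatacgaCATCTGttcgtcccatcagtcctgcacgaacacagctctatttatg
Crx -26.1 kb: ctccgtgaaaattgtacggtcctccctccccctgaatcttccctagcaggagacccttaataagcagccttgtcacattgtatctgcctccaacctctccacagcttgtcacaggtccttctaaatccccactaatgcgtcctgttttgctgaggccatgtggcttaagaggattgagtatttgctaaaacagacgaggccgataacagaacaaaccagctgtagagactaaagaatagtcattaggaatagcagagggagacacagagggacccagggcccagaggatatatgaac
The promoter part held 2 copies of GGATTA, and the peak at -26.1 kb held none of the 3 motifs.

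The depth behind a peak is given as tags at the summit, the height of the pileup of sequenced tags, which was solved as a whole number from the deposited values. The median peak had 9 tags in both libraries, and the lowest local background, which scales with the number of tags in a library, was 0.261 tags in control and 0.257 in Ngn3-OE. Tags were therefore compared without rescaling. The targeted gene followed the labels, with no control peak and 1 Ngn3-OE peak of 1591 tags within 10 kb of Neurog3. The plasmid insert and the genomic locus cannot be told apart in that peak. A peak lay within 1 kb of a start site of 9 of 9 progenitor and 8 of 8 photoreceptor marker genes in both libraries, of 4 of 4 Müller glia markers in control and 3 in Ngn3-OE, of 1 of 4 microglia markers and of 0 of 3 endothelial markers. The highest start-site tags summed over a list were 460 in control and 418 in Ngn3-OE for the progenitor list, and 328 and 434 for the photoreceptor list, which includes Otx2 and Crx. Within the progenitor list, Rax (91 and 94) and Six6 (88 and 90) were higher in Ngn3-OE. The sums of the other retinal lists were 80 and 101 for ganglion cells, 73 and 61 for amacrine and horizontal cells, 17 and 25 for bipolar cells and 178 in both libraries for Müller glia. That of the pigment epithelium list, where 1 of 3 genes had a peak, was 128 and 140. The shares of cell types in each sorted population were not measured, and their part in the results below was not tested.

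Most peaks at both loci were called in both libraries. At Otx2, 27 of 32 control peaks overlapped a Ngn3-OE peak by 1 bp or more, and at Crx 20 of 22 did. The 5 control-only peaks at Otx2 were 15.6% of its control peaks (95% Wilson interval 6.86 to 31.8%), beside 21.7% over the whole control list. The 2 control-only peaks at Crx were 9.09% (2.53 to 27.8%). In the other direction, 5 of 33 Ngn3-OE peaks at Otx2 (15.2%, 6.65 to 30.9%) and 5 of 25 at Crx (20.0%, 8.86 to 39.1%) had no control partner, beside 26.6% of all Ngn3-OE peaks. All 4 shares were below those of the whole lists. All 4 intervals include the whole-list value, but they treat neighbouring peaks of 1 library as independent draws and test nothing.

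The one-library peaks had few tags at Otx2 and reached higher at Crx. At Otx2 they had 3 to 11 tags in control and 3 to 9 tags in Ngn3-OE, and at Crx 8 to 12 and 3 to 22 tags, beside a median of 9 over all peaks of either library. Of the peaks with a −log10 q of 5 or more, 1 of 20 control and 1 of 26 Ngn3-OE peaks at Otx2 had no partner, as did 1 of 20 and 2 of 21 at Crx, beside 7.89% of all such control peaks and 10.3% of all such Ngn3-OE peaks.

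**Figure D1:**
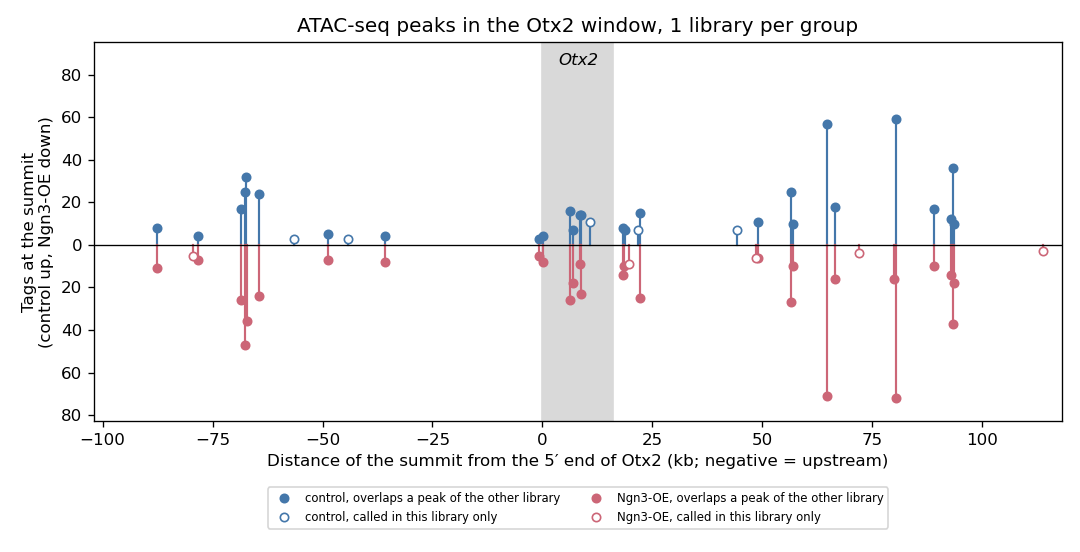
Tags at the summit of each peak in the Otx2 window, with control drawn upward and Ngn3-OE downward, against the distance from the 5′ end of the gene in kb (negative is upstream; the grey band is the gene body). Filled points overlap a peak of the other library and open points do not. The tallest stems, 57 and 59 tags in control and 71 and 72 in Ngn3-OE, stand past the 3′ end of the gene, and the open points stay at or below 11 tags.

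**Figure D2:**
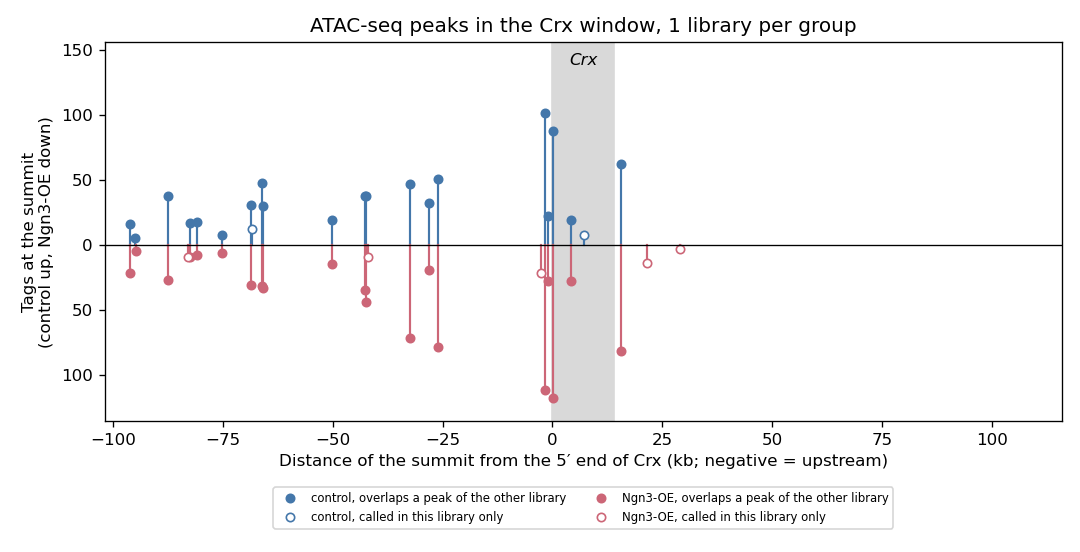
The same plot for the Crx window. The tallest stems, 102 and 88 tags in control and 112 and 118 in Ngn3-OE, stand at the promoter and just upstream, and most of the flank past the 3′ end has no peak.

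The loci were built differently. At Otx2 the tall peaks stood far from the gene, up to 59 tags in control, while the tallest control peak within 1 kb of an Otx2 start site had 16 tags. At Crx the tallest peaks stood at the promoter and just upstream, up to 102 tags. The median control peak had 30.5 tags at Crx against 11 at Otx2 and 9 over the whole list. Of the 22 Crx control peaks, 7 lay within 1 kb of a start site of another gene. Those at Selenow, Nop53 and Ehd2 had 30 to 48 tags, whereas the Otx2 window held no other protein-coding gene. By rank percentile, which orders the peaks of a library by −log10 q with 0 as the weakest and 100 as the strongest, the median control peak stood at 83.6 for Crx and 50.2 for Otx2. The flank past the 3′ end of Crx, which holds the homeobox gene Obox6 and pseudogenes, had 1 control peak and 3 Ngn3-OE peaks.

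The Otx2 start sites carried modest signal in both libraries. Otx2 has 5 annotated start sites, the first at the 5′ end of the gene and the others inside it, and 7 control and 6 Ngn3-OE peaks lay within 1 kb of them. The peak at chr14:48667559-48667674, an intronic peak 106 bp from an internal start site, had 16 tags in control and 26 in Ngn3-OE, a log2 ratio of 0.70 (95% exact counting interval -0.25 to 1.70). The exonic peak at chr14:48664990-48665181, 19 bp from another start site, had 14 and 23 tags. Its log2 ratio was 0.72 (-0.30 to 1.79), so both of these peaks were higher in Ngn3-OE by a margin that counting error alone can give.

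Closer to the annotated 5′ end the signal was lower still. The peak over the first start site (chr14:48673765-48673831) had 4 tags in control and 8 in Ngn3-OE, and the one at -0.73 kb (chr14:48674536-48674626) had 3 and 5. Both lie in Otx2os1, a long noncoding RNA that starts inside Otx2 on the opposite strand, so that they cannot be assigned to 1 of these genes. The intronic peak at chr14:48666891-48666947 had 7 tags in control and 18 in Ngn3-OE, a log2 ratio of 1.36 (0.04 to 2.86), and its rank percentile went from 3.92 to 61.8. That interval leaves out 0, but its lower bound lies below the median log2 ratio of 0.09 over all shared peaks. The log2 ratio was the highest among the shared Otx2 peaks.

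Another 2 start-site peaks of Otx2 were stronger or called only in control. The peak at chr14:48665339-48665466, which holds a GGATTA within 100 bp of its summit, had 14 tags in control and 9 in Ngn3-OE, a log2 ratio of -0.64 (-2.03 to 0.67). The control-only peak at chr14:48662985-48663073, in an intron 151 bp from the start site nearest the 3′ end, had 11 tags. Its −log10 q was 4.80, at a rank percentile of 33.3 in control.

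Past the 3′ end of Otx2 stood the strongest control peaks of the locus. In Ngn3-OE the upstream peak at -67.6 kb, described below, ranked above the one at 93.3 kb. The peak at 80.3 kb (chr14:48593315-48593971), in an intron of the long noncoding RNA Gm49120, had 59 tags in control and 72 in Ngn3-OE, a log2 ratio of 0.29 (-0.23 to 0.81). The intergenic peak at 64.7 kb (chr14:48608448-48609277) had 57 and 71 tags, a log2 ratio of 0.32 (-0.21 to 0.85). At 93.3 kb (chr14:48580349-48580625) the tags were 36 and 37, a log2 ratio of 0.04 (-0.66 to 0.74). These 3 peaks, whose sequences carry GGATTA and the E-box core, were called in both libraries, and their intervals include 0. The first was 1 interval in control and was covered by a pair of intervals in Ngn3-OE, of which the weaker had 16 tags.

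A separate group of peaks stood upstream, in introns of Otx2os1 between -68.5 and -64.5 kb. The peak at chr14:48741332-48741488, whose sequence with GGATTA and a SOX-type match is given above, had 25 tags in control and 47 in Ngn3-OE. Its log2 ratio was 0.91 (0.18 to 1.67) and its rank percentile went from 76.9 to 91.3. It and the intronic peak above, both named for their high ratios, were the 2 of 27 shared Otx2 peaks with an interval above 0, and 0 had one below 0, beside 3.3% and 2.4% of all shared peaks. Its neighbour at chr14:48740974-48741221 had 32 and 36 tags, and the peak at chr14:48738211-48738387 had 24 in both.

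Lower tags in Ngn3-OE were found at 4 shared Otx2 peaks, 3 of them past the 3′ end. The peak at chr14:48624683-48624833 had 11 tags in control and 6 in Ngn3-OE, a log2 ratio of -0.87 (-2.59 to 0.69). At chr14:48584700-48584885 the tags were 17 and 10, a log2 ratio of -0.77 (-2.05 to 0.44). The intervals of these peaks include 0. Of the one-library peaks, the one of highest −log10 q in control (chr14:48629530-48629622) had 7 tags and the one in Ngn3-OE (chr14:48625104-48625246) had 6, and both were intergenic, at 44.2 and 48.6 kb.

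Over the Otx2 locus, more shared peaks had higher tags in Ngn3-OE than in control. Of 27 shared peaks, 21 had more tags in Ngn3-OE, 4 had fewer and 2 had equal tags, so that 77.8% were higher, beside 53.0% of all 91741 shared peaks. The median log2 ratio was 0.49, with single peaks from -0.87 to 1.36, beside a median of 0.09 over all shared peaks. A ratio of 2-fold or more was reached by 3 peaks in the direction of Ngn3-OE and by 0 in the direction of control, beside 7.3% and 5.37% of all shared peaks. Since 2 of these 3 peaks went from 4 to 8 tags, their ratios rest on few tags.

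The Otx2 median was lower among the better-covered peaks. Of the 19 shared peaks with a mean of 10 or more tags over both libraries, a limit set after the data were seen, 14 had more tags in Ngn3-OE (73.7%, beside 56.2% of all such peaks) and 3 had fewer. Their median log2 ratio was 0.29, beside 0.11. Of these, 1 reached 2-fold in Ngn3-OE beside 5.93%, the intronic peak with 7 tags in control, and 0 reached it in control beside 4.78%. With a −log10 q of 5 or more required in both libraries the median was 0.25. The rank percentile was higher in Ngn3-OE by a median of 12.3, beside 0.963 over all shared peaks, but by 2.15 under that stricter limit.

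The peaks with more tags were spread over the locus. In the gene body 4 of 5 shared peaks were higher in Ngn3-OE, with a median log2 ratio of 0.72. Upstream 8 of 9 were higher and 0 lower, with a median of 0.61, and past the 3′ end 9 of 13 were higher and 3 lower, with a median of 0.22. The local background that the peak caller measured around each peak was also higher in Ngn3-OE at 23 of 27 shared Otx2 peaks (85.2%), with a median log2 ratio of 0.20, beside 44.0% of all shared peaks and a median of -0.02. The part of this wider signal in the tag ratios was not tested.

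**Figure D3:**
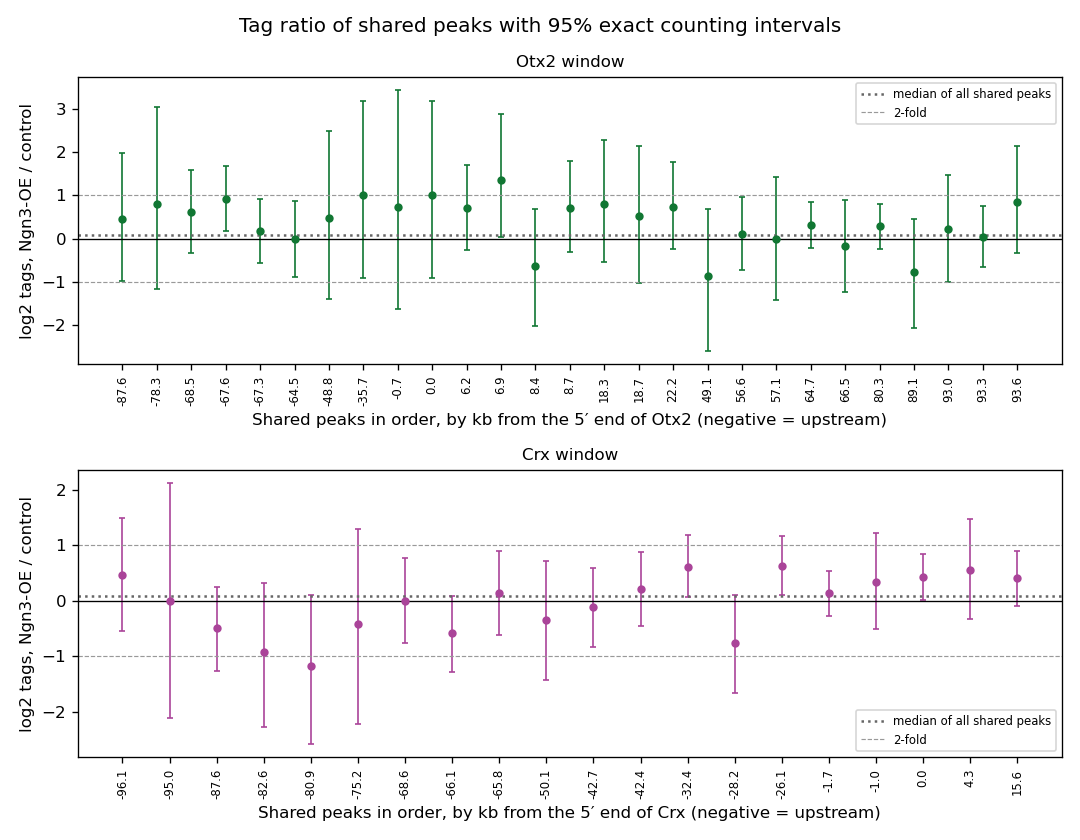
Log2 ratio of tags at the summit (Ngn3-OE over control) for the 27 shared Otx2 peaks and the 20 shared Crx peaks, in order along each locus from upstream to past the 3′ end, with 95% exact counting intervals. The dotted line is the median of all shared peaks at 0.09 and dashed lines mark 2-fold. Most Otx2 points lie above the dotted line, while at Crx most points from Selenow outward, at the left, lie below it and most points nearer to the gene above it.

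Crx had strong peaks at and near its promoter in both libraries. The promoter peak (chr7:15879840-15880123), over the 5′ end of the gene and the first exon, had 88 tags in control and 118 in Ngn3-OE. Its log2 ratio was 0.42 (0.01 to 0.84), and its rank percentile went from 95.8 to 97.9. The local background there was also higher, at 4.77 tags in control and 5.65 in Ngn3-OE. The peak at -1.67 kb (chr7:15881382-15881753), the strongest control peak of the locus, had 102 and 112 tags, a log2 ratio of 0.13 (-0.27 to 0.54). It lay nearer to a start site of Crxos, at 976 bp, than to one of Crx and cannot be assigned to 1 of these genes.

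Around the promoter, further peaks had more tags in Ngn3-OE. The peak past the 3′ end (chr7:15864190-15864436) had 62 tags in control and 82 in Ngn3-OE, a log2 ratio of 0.40 (-0.09 to 0.90). The intronic peak at chr7:15875631-15875742, 4.28 kb into the gene, had 19 and 28 tags, a log2 ratio of 0.56 (-0.33 to 1.48). Between Crx and Selenow, a selenoprotein gene, the intergenic peak at -26.1 kb (chr7:15905886-15906182) had 51 and 79 tags. Its log2 ratio of 0.63 (0.11 to 1.17) was the highest at Crx, and the peak at -32.4 kb (chr7:15912194-15912539) followed with 47 and 72 tags, a log2 ratio of 0.62 (0.07 to 1.18). With the promoter, whose lower bound was only just above 0, these were the 3 of 20 shared Crx peaks with an interval above 0. An interval below 0 was found at 0 Crx peaks, and the shares over all shared peaks were 3.3% above and 2.4% below. The lower bounds of the promoter and of the peak at -32.4 kb lay below the median log2 ratio of 0.09 over all shared peaks. These shares come from peaks of all depths, while the median control peak had 30.5 tags at Crx and 9 over the whole list.

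The peaks with fewer tags in Ngn3-OE lay farther upstream. In introns of Ehd2, a gene for an endocytic ATPase, the peak at chr7:15960782-15960945 had 18 tags in control and 8 in Ngn3-OE, a log2 ratio of -1.17 (-2.58 to 0.10), and was the only shared Crx peak past 2-fold. The peak at chr7:15962393-15962676 had 17 and 9 tags, a log2 ratio of -0.92 (-2.27 to 0.33). Nearer to Crx, the peak at chr7:15908064-15908237 stood between the 2 peaks with the highest ratios and had 32 and 19 tags, a log2 ratio of -0.75 (-1.65 to 0.11). The peak 24 bp from the start site of Nop53, a ribosome biogenesis gene (chr7:15946023-15946168), had 48 and 32 tags, a log2 ratio of -0.58 (-1.28 to 0.09).

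Few one-library peaks at Crx stood at the gene itself. The control-only peak at chr7:15872639-15872726, in an intron 300 bp from the internal start site, had 8 tags. The Ngn3-OE-only peak at chr7:15882611-15882711, 68 bp from the start of the neighbouring gene Crxos on the opposite strand, had 22 tags over a background of 5.18 and a CATCTG within 100 bp of its summit. The Ngn3-OE-only peak at chr7:15858419-15858509, 7.48 kb past the 3′ end of Crx, had 14 tags. The other control-only peak (chr7:15948238-15948315), in an exon of Ehd2, had 12 tags. Both control-only peaks held a GGATTA within 100 bp of the summit. A Ngn3-OE-only peak of 9 tags (chr7:15962785-15962895) held a CATCTG and stood in an intron of Ehd2. The remaining Ngn3-OE-only peaks held none of the 3 motifs and were one of 9 tags in an intron of Selenow, 516 bp from its start site, and an intergenic one of 3 tags past the 3′ end of Crx.

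Over the whole Crx window, shared peaks with more and with fewer tags in Ngn3-OE were nearly as frequent. Of 20 shared peaks, 10 had more tags in Ngn3-OE, 8 had fewer and 2 had equal tags, so that 50% were higher, beside 53.0% of all shared peaks. The median log2 ratio was 0.07, with single peaks from -1.17 to 0.63, beside 0.09. A ratio of 2-fold or more was reached by 0 peaks in the direction of Ngn3-OE and by 1 in that of control, beside 7.3% and 5.37%. The rank percentile was higher in Ngn3-OE by a median of 0.0422, beside 0.963. These values lie close to those over all shared peaks. With 50 kb on either side in place of 100 kb, the median log2 ratio was 0.38.

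The shared Crx peaks were also counted on either side of Selenow, a boundary chosen after the values were seen, so that the difference was not tested. From the peak past the 3′ end of Crx to the last peak before Selenow, the 1 peak past the gene, the 2 in the gene and 4 of 5 upstream had more tags in Ngn3-OE, with medians of 0.40, 0.49 and 0.35. From Selenow on, 3 of 12 had more tags, 7 had fewer and 2 were equal, with a median of -0.23 and single peaks from -1.17 to 0.46. The background around the peaks was higher in Ngn3-OE at 13 of 20 shared Crx peaks (65.0%), beside 44.0% of all shared peaks. Its median log2 ratio was 0.06, beside -0.02.

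**Figure D4:**
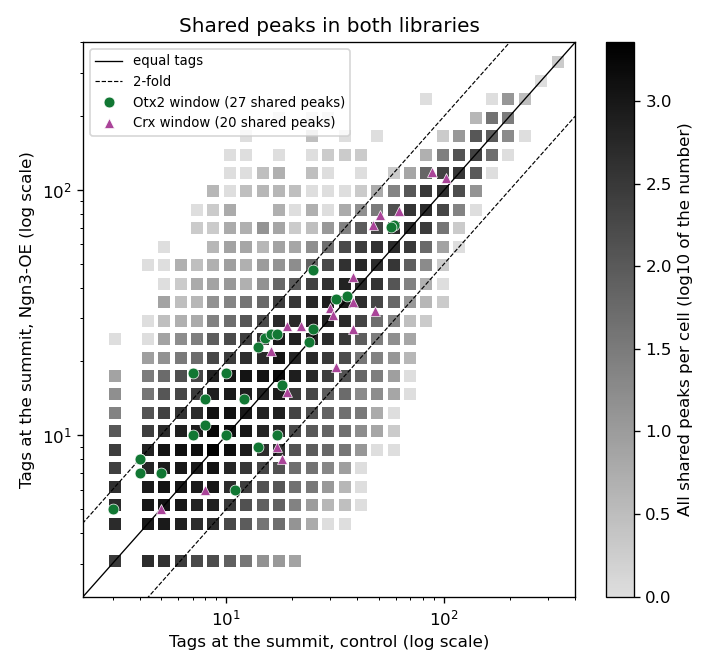
Tags at the summit in control (horizontal, log scale) and Ngn3-OE (vertical, log scale) for the shared peaks of both loci over a grey density of all 91741 shared peaks. The solid line marks equal tags and dashed lines 2-fold. The Otx2 points lie mostly above the solid line and on or inside the dashed ones except for 1 peak at 7 and 18 tags, and the Crx points reach 102 tags in control.

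Motif matches were counted in the 100 bp on either side of each summit. GGATTA was found at 10 of 32 control peaks of Otx2 (31.3%) and 5 of 22 of Crx (22.7%), beside 13.9% of all control peaks. In Ngn3-OE it was found at 12 of 33 (36.4%) and 3 of 25 (12%), beside 16.5%. The E-box core CATCTG was found at 7 control peaks of Otx2 (21.9%) and 3 of Crx (13.6%), beside 21.3%, and at 9 (27.3%) and 6 (24.0%) Ngn3-OE peaks, beside 22.6%.

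The SOX-type motif was found at 5 control peaks of Otx2 (15.6%) and 3 of Crx (13.6%), beside 8.80%, and at 4 (12.1%) and 3 (12%) Ngn3-OE peaks, beside 7.41%. Both GGATTA and CATCTG were present at 3 control peaks of Otx2, which were its 3 strongest, and this combination occurred at 3.12% of all control peaks. In Ngn3-OE, 4 of 33 Otx2 peaks held both, one of them a Ngn3-OE-only peak of 4 tags, beside 3.63% of all Ngn3-OE peaks. At Crx 0 of 22 control peaks and 1 of 25 Ngn3-OE peaks held both. The latter is the partner of the control peak at 15.6 kb, whose sequence shows both motifs but whose CATCTG is not wholly within 100 bp of the control summit. The GGATTA of the Crx peak at -1.67 kb, marked in its sequence, lies more than 100 bp from the summit and is not in these counts.

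The same 100 kb windows were taken around 18 other genes of photoreceptor development and its control, among them Prdm1, which favours photoreceptor over bipolar fate, the rod factors Nrl and Nr2e3, the Notch pathway genes Notch1 and Rbpj, and the phototransduction gene Rcvrn. Their 373 shared peaks had 2-fold or more tags in Ngn3-OE at 29 (7.77%) and in control at 18 (4.83%), beside 7.3% and 5.37% of all shared peaks. The median log2 ratio was above 0 at 12 genes, below 0 at 2 and 0 at 4. At 2 of the 18 genes, Nr2e3 (0.61) and Rcvrn (0.53), the median lay above that of Otx2, and at 12 it lay above that of Crx.

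The highest peak within 1 kb of a start site had 16 tags in control and 26 in Ngn3-OE at Otx2 and 88 and 118 at Crx. At Prdm1 it had 63 and 82 tags, at Nrl 43 and 63, at Nr2e3 10 and 24 and at Rbp3, the gene of an interphotoreceptor retinoid carrier, 62 and 89. Of the 17 genes of the list with such a peak, 12 had more tags in Ngn3-OE (70.6%), 4 had fewer and 1 had equal tags, beside 52.6% with more tags among 14516 protein-coding genes with a start-site peak. Neurod1, a proneural factor of photoreceptors, had 95 in both libraries and Notch1 had 50 and 31.

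The windows end at a fixed distance. The control peaks nearest the edges of the Otx2 window had 10 and 8 tags inside and 8 and 4 tags outside it, and those nearest the edge upstream of Crx had 16 tags inside and 5 outside. Past the 3′ end of Crx the nearest control peak beyond the edge lay 1143 kb away.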

How the data were processed

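The processed data were 1 ATAC-seq peak list for each of the control and Ngn3-OE libraries, grouped by sample title. According to the methods, the authors trimmed reads with Trimmomatic, aligned them to mm10 with Bowtie2, and removed PCR duplicates (Picard 2.20.4), mitochondrial reads (SAMtools 1.6) and blacklisted regions (bedtools 2.30.0). Fragments of up to 120 bp were kept and shifted for the Tn5 cut (deepTools 3.1.3), which leaves out nucleosomal fragments, and peaks were called per library with MACS2 2.2.4 at a q-value limit of 0.05. The deposited columns were an integer score (10 times the −log10 q-value), a fold enrichment over the local background, the −log10 p-value, the −log10 q-value and the summit offset, none of them normalised between libraries.

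Lines with equal intervals on the 21 assembled chromosomes were merged, which left 117165 control and 124935 Ngn3-OE peaks, and 159 and 150 lines elsewhere were left out. The fold enrichment and −log10 p of each summit were solved together for its tags and its local background under a Poisson model (scipy 1.17.1). A whole number of tags that gave the −log10 p within 0.01 was found for 100% of lines, with a lower limit set on the background. The step was tested on simulated data, which kept to the same lower limit and so do not test it. The length to which tags were extended is not given in the sources used here, so tags are not a read depth. Each control peak was paired with the overlapping Ngn3-OE peak of highest −log10 q. With 1 library per group no test was possible. Shares have 95% Wilson intervals, which treat peaks as independent draws. Tag ratios have 95% exact conditional (Clopper–Pearson) intervals, for counting error only.

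Named peaks were those within 1 kb of a start site (GENCODE M21 basic), the 5 of highest −log10 q per list, the 3 strongest one-library peaks per list, and the 3 with the highest and lowest ratio among those with 10 or more tags in either library. The loci, gene lists and motifs were chosen with earlier results of these data known. Alternatives were other windows, overlap rules, q limits and rankings. Sequences were read from GRCm38, the same build as mm10. Expression data and the authors' differential regions were not used here, and the values of some genes of the list are not reported here.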

Additional observations from a re-analysis of the deposited data

How the results depend on the processing

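Of 122 alternative values, 77 stayed within the interval of the reported value or within 1.5 times its count, and 45 moved. The alternative median log2 ratios ran from 0.25 to 0.70 at Otx2 and from 0.02 to 0.38 at Crx. The median over all shared peaks in the main setting was 0.09, which lies above the lowest Crx value. The median rank shift at Otx2 ran from 2.15 to 15.1, and at Crx it was -0.74 when ranked by fold enrichment. No paired analysis was possible because each group has 1 library and no result comes from a test. For the same reason no library could be left out.

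The counts of peaks followed the limits set. At Otx2, control peaks numbered 20 at a −log10 q of at least 5, 19 with 50 kb flanks, 11 with 10 kb flanks and 12 among the 50000 strongest peaks, and Ngn3-OE peaks 17, 10 and 14 under the last 3. Otx2 control-only peaks numbered 2 with the q limit in both lists, 1 with it in the queried list, 10 with 200 kb flanks, 2 with 10 kb and 2 among the 50000 strongest. Otx2 Ngn3-OE-only peaks numbered 7 with the q limit in both lists, where a partner below the limit no longer counts, 2 with 50 kb, 1 with 10 kb, 8 when summits had to lie within 100 bp and 1 with the q limit in the queried list. The 200 kb flanks held 47 control peaks of Otx2, 10 of them control-only. Of the shared ones, 6 reached 2-fold in Ngn3-OE and 2 in control, beside 7.3% and 5.37% of all shared peaks. With the main flanks and a mean of at least 10 tags, a filter added after the data were seen, 1 passed 2-fold in Ngn3-OE, beside 5.93%.

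At Crx, control peaks numbered 11 with 50 kb and 6 with 10 kb flanks, and Ngn3-OE peaks 14, 7 and, among the 50000 strongest, 14. Crx control-only peaks numbered 1 with the q limit in both lists or in the queried list, 1 with 50 kb, 4 with 200 kb and 1 with 10 kb. Crx Ngn3-OE-only peaks numbered 2 with either q limit, 2 with 10 kb and 0 among the 50000 strongest. With 50 kb flanks 0 shared Crx peaks passed 2-fold in control, beside 5.37% of all shared peaks.

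Motif counts followed the window. With 50 bp on each side, GGATTA was found at 7 Ngn3-OE peaks of Otx2 and 3 control peaks of Crx, and the SOX type at 2 control and 1 Ngn3-OE peaks of Otx2 and 1 and 1 of Crx. With 250 bp, GGATTA was found at 7 Ngn3-OE peaks of Crx, CATCTG at 5 control peaks of Crx, and the SOX type at 8 control peaks of Otx2 and 8 and 8 peaks of Crx. These moves follow from the wider or narrower limits themselves. Depth limits single peaks: a peak of 4 tags in control and 8 in Ngn3-OE had an interval from -0.90 to 3.18.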

Other observations

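Otx1, the paralogue of Otx2, lay in a sparser window of the same kind, with 10 control and 8 Ngn3-OE peaks. Of its 6 shared peaks, 1 had more and 4 had fewer tags in Ngn3-OE, with a median log2 ratio of -0.41. Over all shared peaks 53.0% had more tags, with a median of 0.09. The highest peak within 1 kb of an Otx1 start site had 20 tags in control and 10 in Ngn3-OE, while the same measure at Otx2 was 16 and 26. The difference between the paralogues was not tested.

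Otx2os1, the long noncoding RNA that overlaps the upstream Otx2 peaks, had 51 control and 50 Ngn3-OE peaks in its own 100 kb window, which contains most of the Otx2 window. Of its 43 shared peaks, 33 had more and 7 fewer tags in Ngn3-OE, beside 53.0% with more over all shared peaks. The median log2 ratio was 0.42, beside 0.09.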
